A study of Mus musculus with 12 samples.

Results

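Adrenomedullin, its receptor components and the hypoxia-inducible factor (HIF) regulators were examined as a group of 9 genes, chosen by name as listed ligand, receptor and HIF regulator genes. The 9 genes were Adm, Calcrl, Ramp1, Ramp2, Ramp3, Epas1, Hif1a, Egln1 and Egln3, out of 54352 gene symbols in the count table, and each was found as a row of it. Fibroblasts of the adventitia, the outer connective tissue coat of the aorta, were cultured from wild-type C57Bl/6 mice, and RNA of 12 cultures was sequenced. Cells came from the ascending or the descending aorta and received no TGFβ (control) or TGFβ at 10 ng/mL for 48 h, with 3 cultures in each of the 4 groups. The labels give all animals an age of 14 weeks and all cultures 1 passage, although the study's text gives differing ages and passage numbers. The sources used here do not state whether cultures with the same replicate number shared an animal, so p-values measure the spread between these cultures, which may be technical.

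Adrenomedullin, the peptide made from Adm, relaxes blood vessels and keeps the endothelium tight. It acts through the calcitonin receptor-like receptor (Calcrl), a G protein-coupled receptor that reaches the cell surface with a receptor activity-modifying protein: with Ramp2 or Ramp3 it binds adrenomedullin, and with Ramp1 it binds calcitonin gene-related peptide (CGRP). Hif1a and Epas1 (also called HIF2A) encode the oxygen-sensitive alpha subunits of the hypoxia-inducible factors. The prolyl hydroxylases Egln1 (PHD2) and Egln3 (PHD3) mark these proteins for breakdown when oxygen is present. HIF dimers bind DNA at hypoxia response elements, and Adm, Egln1 and Egln3 are textbook HIF target genes. The breakdown of HIF proteins cannot be seen in RNA counts.

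In the mouse genome build GRCm38 (mm10), the annotation (GENCODE vM21) places Adm at chr7:110627661-110629820, Calcrl at chr2:84330626-84425411, Ramp1 at chr1:91179822-91225196, Ramp2 at chr11:101246028-101259546 and Ramp3 at chr11:6658521-6677475. Epas1 lies at chr17:86753700-86833410, Hif1a at chr12:73901375-73947530, Egln1 at chr8:124908587-124949324 and Egln3 at chr12:54178981-54203860. Of the exon sequence of Ramp2, 30.7% of the 50-base stretches also lie in exons of another gene, mainly Vps25, a neighbour on the same strand. Vps25 itself had 0 to 9 counts per library. How reads in such shared bases were counted, and whether by strand, is not given in the sources used here, so the level of Ramp2 per length is uncertain. Hif1a shares 5.74% of its stretches, mainly with Gm15283, an antisense gene with 0 to 7 counts per library, and Ramp3 shares 3.99%, mainly with Gm11978, which had 0 counts in all 12 libraries.

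Bases before the gene start are shown for the ligand, its receptor and the pair of prolyl hydroxylases, because these genes changed with TGFβ in at least the ascending fibroblasts and the HIF core motif was searched in them. RefSeq windows (build GRCm38.p6) of the 250 bases before the RefSeq start were found for 7 of the 9 genes, and not for Ramp2 and Epas1. The RefSeq start differs from the GENCODE start for some of these genes, and 145 bases of the Calcrl window and 70 of the Egln1 window lie inside the GENCODE gene. The whole Hif1a window and 12 bases of the Ramp3 window do so as well. Only bases outside the GENCODE gene are printed. Sequences run 5′ to 3′ on the gene's strand, and capitals mark matches to ACGTG or GCGTG, the core of the hypoxia response element, on either strand (as CACGT or CACGC when read on the other strand). The printed stretch of Adm is chr7:110627407-110627656 (plus strand), that of Calcrl chr2:84425412-84425516 (minus), that of Egln1 chr8:124949325-124949504 (minus) and that of Egln3 chr12:54203875-54204124 (minus).
Adm: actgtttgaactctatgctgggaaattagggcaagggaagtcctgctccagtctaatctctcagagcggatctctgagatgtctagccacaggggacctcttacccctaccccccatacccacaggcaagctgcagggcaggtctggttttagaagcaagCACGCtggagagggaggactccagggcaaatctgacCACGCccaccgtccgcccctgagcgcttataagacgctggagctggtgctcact
Calcrl: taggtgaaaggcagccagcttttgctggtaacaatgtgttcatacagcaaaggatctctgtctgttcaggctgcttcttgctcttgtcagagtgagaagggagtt
Egln1: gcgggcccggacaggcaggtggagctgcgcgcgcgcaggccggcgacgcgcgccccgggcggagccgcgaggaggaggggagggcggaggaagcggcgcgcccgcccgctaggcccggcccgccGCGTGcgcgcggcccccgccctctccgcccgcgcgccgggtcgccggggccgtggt
Egln3: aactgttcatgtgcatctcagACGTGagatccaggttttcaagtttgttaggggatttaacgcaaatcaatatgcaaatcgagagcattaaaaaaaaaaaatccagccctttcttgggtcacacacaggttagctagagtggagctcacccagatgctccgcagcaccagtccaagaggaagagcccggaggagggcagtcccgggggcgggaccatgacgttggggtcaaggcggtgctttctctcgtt

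The Adm window held 2 matches to GCGTG, which began 90 and 54 bases before the RefSeq start. The Egln1 window, with a GC content of 86%, held GCGTG at 126 bases and, inside the GENCODE gene and not printed, ACGTG at 68 bases, and the Egln3 window held ACGTG at 229 bases. No match lay in the Calcrl or Ramp1 windows, while Ramp3 had 2 and Hif1a had 3, of which 2 were both strands of the same CACGTG. Of the 7 windows, 5 held either motif, against 38.6% of all 32851 RefSeq windows of this length. ACGTG was in 3 of the 7 and in 16.6% of all windows, and GCGTG was in 28.2% of all windows. A match describes letters only and is not a binding site.

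Counts on genes summed to between 16250126 and 23892943 per library. Levels are given as normalized CPM, counts scaled to a common library total after TMM normalization. A level at or under 3 counts was taken as the floor, which lay between 0.117 and 0.207 normalized CPM. This floor reflects counting error alone, because reads copied by PCR and carrying no molecular tag do not each stand for a molecule. The descending control replicate 3 stood apart from the other libraries. It detected 13031 genes where the others detected 19337 to 20931, and mitochondrial genes took 11% of its counts where they took 0.703 to 1.03% elsewhere. All tests keep this library, as the study did, and values without it are given beside many of the results. Adjusted p-values below come from edgeR's quasi-likelihood F-test, two-sided, with Benjamini-Hochberg adjustment over all genes tested, a gene was called at an adjusted p under 0.05, and the error of a log2 fold change is its standard error (SE).

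The labels of the treatment were checked with 4 genes that TGFβ is known to raise. In ascending fibroblasts all 4 rose, by 1.72 (Acta2), 1.65 (Ctgf), 0.97 (Col1a1) and 0.52 (Smad7) on the log2 scale. In descending fibroblasts 3 rose, by 1.11 to 2.14, and Smad7 had a log2 fold change of 0.89 (adjusted p = 0.162, edgeR), and 0.61 (adjusted p = 1.58e-10) without control replicate 3. All 6 fibroblast markers lay above the floor in every library, but their levels moved with TGFβ at both sites. Col1a1 and Col1a2 were higher with TGFβ, while Pdgfra, Dcn, Lum and Thy1 were lower. Pdgfra was at 180.5 to 188.5 normalized CPM in ascending control and 52.0 to 59.3 with TGFβ. In descending libraries it was at 362.4 to 379.9 and 78.5 to 90.6, so it moved with the site as well. Markers of endothelial cells, which are known for high levels of Calcrl, Ramp2 and Epas1, were at or near 0 except for Tek. Tie1 and Cldn5 had 0 counts in all 12 libraries, Emcn had at most 3, Pecam1 and Cdh5 had at most 6, and Kdr and Vwf at most 34 and 21 counts in a library. The summed level of the 7 endothelial markers other than Tek was 0.826 to 2.20 normalized CPM in ascending control and 0.994 to 1.25 in ascending TGFβ libraries, and 0 to 1.95 and 1.94 to 2.01 in the descending ones. Tek was at 23.6 to 25.7 normalized CPM in all 6 control libraries and at 3.60 to 9.27 with TGFβ. Macrophage markers (6 genes) summed to 52.7 to 352 normalized CPM in ascending control, the highest in replicate 2, and to 14.3 to 47.9 in the other groups. Smooth muscle markers (6 genes) summed to 139 to 153 in ascending control and 182 to 194 with TGFβ. In descending libraries they summed to 196 to 246 and 319 to 343, so the sum moved with TGFβ and with the site. Its members did not all move alike. In ascending cells Cnn1, Smtn and Lmod1 were higher with TGFβ, Myh11 and Des were lower, and Myocd overlapped. Des was lower with TGFβ in descending cells as well, and higher in ascending than in descending libraries under both treatments. Mesothelial markers (4 genes) summed to 16.3 to 40 in ascending and to at most 1.69 in descending libraries, so they moved with the site. In ascending cells they were at 30 to 40 in control and 16.3 to 23.1 with TGFβ, so they moved with TGFβ as well. Schwann cell markers (4 genes) summed to 21.4 to 25.9 in ascending control and 14.9 to 15.7 with TGFβ, and to 14.8 to 24.8 and 10.8 to 12.1 in descending libraries. They were lower with TGFβ at both sites and lower in descending than in ascending cells under TGFβ, and Sox10, their defining transcription factor, had 36 to 59 counts in each ascending library and 0 in each descending one. Lymphatic endothelial markers (3 genes) summed to 2.83 to 4.74 over all libraries. The part of these cells in any result below was not tested.

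TGFβ lowered the ligand Adm, its receptor Calcrl with Ramp2, and Epas1 at both sites, while the changes of Hif1a, Egln1 and Egln3 were smaller. In ascending fibroblasts 7 of the 9 genes passed the filter on low counts and all 7 were called, 2 higher and 5 lower, where 55.8% of all 13917 genes tested were called, 28.2% higher and 27.6% lower. Their median log2 fold change was -1.79, against 0 over all genes. In descending fibroblasts 8 passed the filter and 4 were called, all lower, where 8.07% of all 13825 genes were called and 4.48% were lower, with a median of -1.11 against 0.02. Without descending control replicate 3, 7 of 8 were called there, 3 higher and 4 lower, where 52.9% of genes were called, 26.6% higher and 26.3% lower. Both background shares are large in ascending fibroblasts and in descending fibroblasts without that library, so the count of called members is not by itself a result about these genes. The sizes and directions per gene follow, and the plot of levels by library shows each culture.

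**Figure D1:**
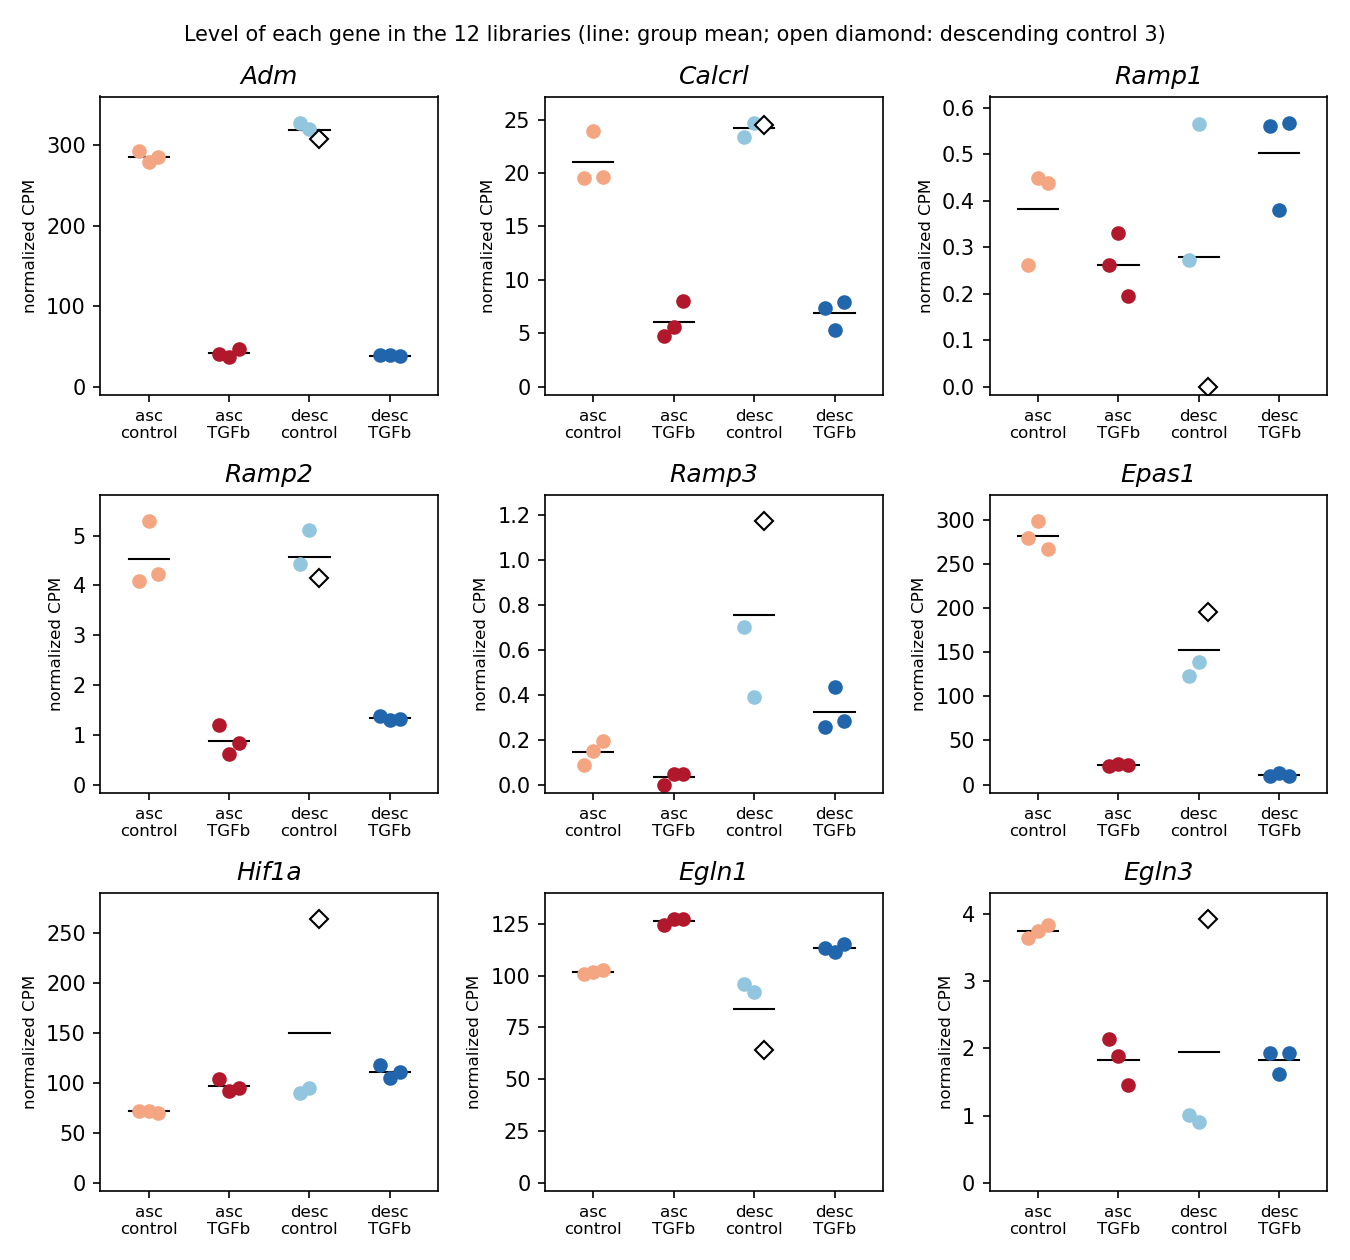
Normalized CPM (vertical axis, linear from 0, a scale for each gene) of the 9 genes in the 12 libraries, with ascending (asc) and descending (desc) groups along the horizontal axis. Points are cultures, lines are means of 3, and the open diamond is descending control replicate 3, which lies far from the other 2 descending controls for Hif1a (264.5 against 90.0 and 94.5) and Egln3 (3.93 against 1.01 and 0.911) but not for Adm or Calcrl.

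Adm, the ligand, fell 6.95-fold and 8.29-fold with TGFβ at the ascending and the descending site. In bulk RNA, fewer cells of a kind and less RNA per cell cannot be told apart. Its normalized CPM was 292, 279 and 286 in the ascending control cultures and 39.9, 36.7 and 47.2 with TGFβ. In descending cultures it was 328, 319.7 and 308 in control and 39.0, 39.1 and 37.8 with TGFβ. No treated culture came near a control culture, and the treated cultures of both sites lay together. The coefficient of variation was 2.31% in ascending and 3.12% in descending control, and 13% and 1.82% with TGFβ. On the log2 scale Adm fell by 2.80 (SE 0.06, adjusted p = 7.53e-16) in ascending and by 3.05 (SE 0.11, adjusted p = 0.000407) in descending fibroblasts. Without descending control replicate 3 the descending log2 fold change was -3.07 (SE 0.05, adjusted p = 1.66e-27).

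The site mattered little for Adm. Control levels in the 3 ascending cultures were all below those in the 3 descending cultures, by 0.15 on the log2 scale (SE 0.09, adjusted p = 0.522). Without descending control replicate 3 the difference was -0.17 (SE 0.04, adjusted p = 0.00475), a 1.12-fold lower level in ascending cultures. With TGFβ the groups overlapped (log2 fold change 0.10, SE 0.07, adjusted p = 0.297). The test of whether the change with TGFβ differed between sites, the interaction of site and treatment, gave 0.25 (SE 0.13, adjusted p = 0.552), meaning a smaller fall in ascending cells, and 0.27 (SE 0.08, adjusted p = 0.0322) without descending control replicate 3.

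Calcrl, the receptor, fell with the ligand. It was at 19.5, 23.9 and 19.6 normalized CPM in ascending control cultures and at 4.75, 5.54 and 7.99 with TGFβ. The descending cultures had 23.4, 24.7 and 24.5 in control and 7.35, 5.32 and 7.95 with TGFβ. Control and treated cultures did not overlap at either site, whereas the sites overlapped under both conditions. TGFβ lowered it by a log2 fold change of -1.79 (SE 0.14, 3.45-fold, adjusted p = 1.31e-08) in ascending and -1.82 (SE 0.20, 3.53-fold, adjusted p = 0.00577) in descending fibroblasts. The descending call was lost without descending TGFβ replicate 1 (adjusted p = 0.0539), and without descending control replicate 3 its adjusted p was 1.57e-13 at a log2 fold change of -1.79. The interaction was 0.03 (SE 0.29, adjusted p = 0.967), so a difference between sites was not detected, with an SE that leaves room for a modest one.

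Ramp2, the accessory protein that makes Calcrl an adrenomedullin receptor, followed the same course at a lower level. Its normalized CPM was 4.09, 5.30 and 4.24 in ascending control and 1.20, 0.615 and 0.828 with TGFβ. It was 4.44, 5.12 and 4.14 in descending control and 1.38, 1.30 and 1.32 with TGFβ. All control cultures lay above all treated cultures, and the 3 treated ascending cultures lay below the 3 treated descending cultures. Ramp2 fell by 2.37 (SE 0.25, 5.17-fold, adjusted p = 5.52e-07) in ascending and by 1.78 (SE 0.28, 3.43-fold, adjusted p = 0.0183) in descending fibroblasts. The descending call was lost when any of the other descending libraries was left out (adjusted p = 0.0827 to 0.132) or no filter on low counts was used (-1.75, adjusted p = 0.0721), and kept without control replicate 3 (log2 fold change -1.83, adjusted p = 5.87e-08). The site difference under TGFβ was -0.60 (SE 0.33, adjusted p = 0.158), and the interaction was -0.59 (SE 0.37, adjusted p = 0.575).

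Ramp1 and Ramp3 were close to the floor in these cells. Ramp1, the partner for CGRP, had 6, 9 and 9 counts in ascending control and 5, 7 and 4 with TGFβ. In descending cultures it had 7, 13 and 0 counts in control and 11, 7 and 12 with TGFβ. It passed the filter within descending fibroblasts (log2 fold change 0.78, SE 1.07, adjusted p = 0.704) and in the interaction (-1.29, SE 1.05, adjusted p = 0.64), and no change was detectable at this depth.

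Ramp3, the alternative adrenomedullin partner, differed by site in its counts. It had 2, 3 and 4 counts in ascending control, 0, 1 and 1 in ascending TGFβ, 18, 9 and 17 in descending control, and 5, 8 and 6 in descending TGFβ libraries. The 6 ascending libraries, with 11 counts in all, lay below the 6 descending libraries, with 63. Ramp3 did not pass the filter in any comparison. Tested without the filter, it was lower in ascending cells under TGFβ (adjusted p = 0.0251), where 10.3% of genes tested without the filter were lower, and not called in control (adjusted p = 0.509). No fold is given against the ascending TGFβ group, which was at or under the floor in all 3 libraries, and its change with TGFβ was not called at either site (adjusted p = 0.327 and 0.584).

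Epas1 had the steepest fall of the 9 genes in the tests at both sites, and it also separated the sites. Its normalized CPM was 279, 299 and 268 in ascending control cultures and 21.4, 22.9 and 22.5 with TGFβ. In descending cultures it was 123, 139 and 196 in control, the last being replicate 3, and 10.1, 13.1 and 10.0 with TGFβ. The groups were ordered without overlap: ascending control, descending control, ascending TGFβ, descending TGFβ. TGFβ lowered Epas1 by a log2 fold change of -3.67 (SE 0.05, 12.7-fold, adjusted p = 5.07e-18) in ascending and -3.79 (SE 0.25, 13.9-fold, adjusted p = 0.00156) in descending fibroblasts, and by -3.57 (SE 0.08, adjusted p = 7.47e-25) in the latter without control replicate 3.

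The ascending cells held more Epas1 RNA. With TGFβ the difference was 1.01 on the log2 scale (SE 0.10, 2.02-fold, adjusted p = 8.78e-10). In control it was 0.89 (SE 0.20, 1.85-fold, adjusted p = 0.104) and not called by edgeR, though DESeq2 called it (adjusted p = 0.00554). Leaving out descending control replicate 3 made it 1.12 (SE 0.06, 2.17-fold, adjusted p = 5.27e-09). The interaction was 0.12 (SE 0.23, adjusted p = 0.815), and -0.10 (SE 0.11, adjusted p = 0.664) without that library.

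Hif1a moved the other way, and much less. It was at 72.0, 72.2 and 70.1 normalized CPM in ascending control and 104.0, 91.9 and 94.5 with TGFβ. Descending cultures had 90.0, 94.5 and 264.5 in control and 117.7, 105.4 and 110.9 with TGFβ. The treated cultures lay above the controls at both sites except for descending control replicate 3, the highest of all 12. Hif1a rose by 0.43 (SE 0.05, 1.35-fold, adjusted p = 1.06e-06) in ascending fibroblasts. In a fit of all 12 libraries together, whose shared spread includes descending control replicate 3, this was not called (adjusted p = 0.504). In descending fibroblasts the log2 fold change was -0.44 (SE 0.45, adjusted p = 0.604), and it was 0.28 (SE 0.06, adjusted p = 0.000163) without that library.

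Between sites Hif1a was lower in ascending cells under TGFβ. The log2 difference there was -0.20 (SE 0.05, adjusted p = 0.00187), not called in the fit of all 12 libraries (adjusted p = 1). In control it was -1.07 (SE 0.45, adjusted p = 0.411), and -0.36 (SE 0.05, adjusted p = 0.000118) without descending control replicate 3. The site difference of Hif1a was thus opposite in sign to that of Epas1 under both conditions.

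Egln1, the main oxygen-sensing prolyl hydroxylase, rose slightly with TGFβ. Its normalized CPM was 100.6, 101.5 and 102.6 in ascending control and 124, 127 and 127 with TGFβ, with a coefficient of variation of 0.986% and 1.33%. In descending cultures it was 95.8, 92.1 and 64.2 in control and 113, 111 and 115 with TGFβ. No control culture reached a treated culture at the same site. The log2 fold change was 0.31 (SE 0.04, 1.24-fold, adjusted p = 1.87e-06) in ascending fibroblasts, not called in the fit of all 12 libraries (adjusted p = 0.129). In descending fibroblasts it was 0.42 (SE 0.18, adjusted p = 0.217), called in the fit of all 12 libraries (adjusted p = 0.0305), and 0.27 (SE 0.05, adjusted p = 8.52e-05) without control replicate 3. With TGFβ, Egln1 was 1.12-fold higher in ascending cells (log2 0.16, SE 0.04, adjusted p = 0.00285), again not called in the fit of all 12 libraries (adjusted p = 0.74).

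Egln3, a prolyl hydroxylase that HIF itself induces strongly, fell with TGFβ in ascending cells, and its change in descending cells depended on 1 control library. It was at 3.65, 3.75 and 3.85 normalized CPM in ascending control and at 2.14, 1.89 and 1.46 with TGFβ. Descending cultures had 1.01, 0.911 and 3.93 in control and 1.94, 1.63 and 1.94 with TGFβ. The treated cultures of both sites overlapped, the ascending controls lay above them, and the descending controls lay below them except for replicate 3. Egln3 fell by 1.04 (SE 0.21, 2.05-fold, adjusted p = 0.000463) in ascending fibroblasts, not called in the fit of all 12 libraries (adjusted p = 0.202). In descending fibroblasts the log2 fold change was -0.08 (SE 0.67, adjusted p = 0.955).

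When descending control replicate 3 was left out, Egln3 rose in descending fibroblasts by 0.93 (SE 0.32, adjusted p = 0.0144). Its control level was then 3.91-fold higher in ascending cells (log2 1.97, SE 0.24, adjusted p = 2.37e-05), against 0.96 (SE 0.64, adjusted p = 0.543) with all libraries. The interaction was -0.98 (SE 0.69, adjusted p = 0.603) with all libraries and -1.97 (SE 0.35, adjusted p = 0.000245) without it. The opposite direction at the sites therefore rests on the choice to leave out 1 of 3 descending controls.

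**Figure D2:**
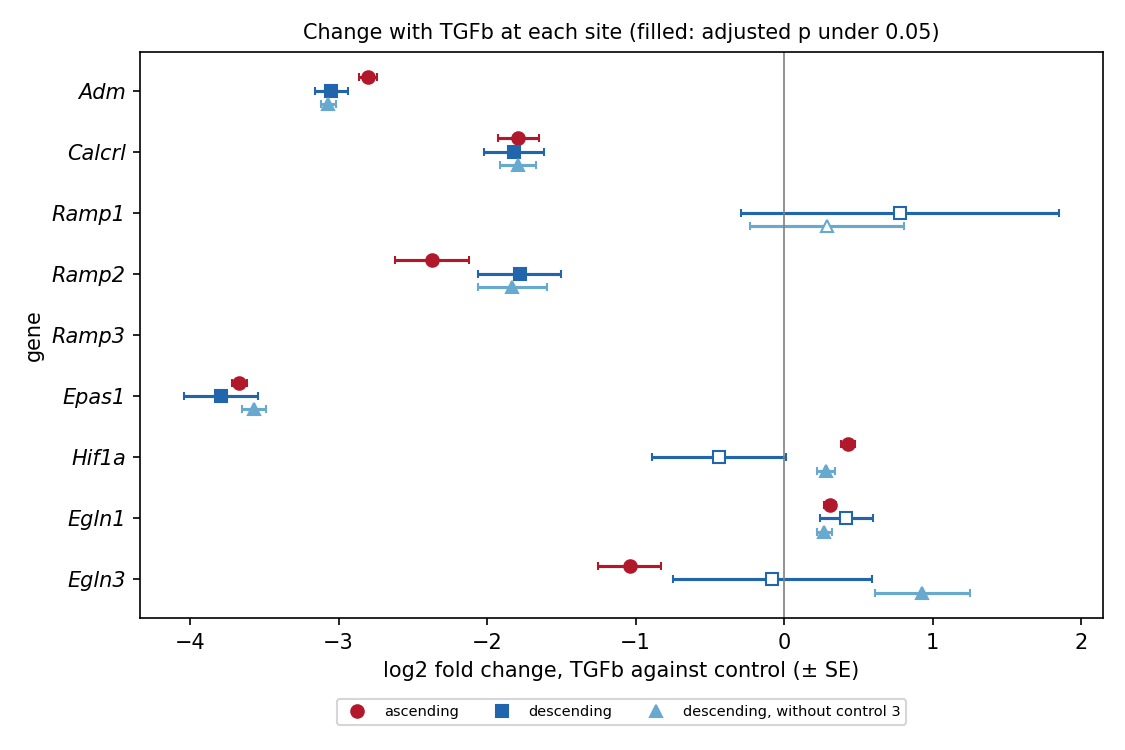
Log2 fold change with TGFβ against control (horizontal axis, bars are ± SE) for each gene, in ascending fibroblasts (circles), descending fibroblasts (squares) and descending fibroblasts without control replicate 3 (triangles). Filled symbols have an adjusted p under 0.05 and genes that did not pass the filter are not drawn. Adm, Calcrl, Ramp2 and Epas1 lie left of 0 in all 3 series, while Hif1a and Egln3 change sign in descending cells with that library.

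Over the site comparisons, 0 of the 7 genes tested in control were called with edgeR, where 2.65% of all genes were called. At an unadjusted p under 0.05 there was 1 (Epas1), and DESeq2 called 1. Without descending control replicate 3, 4 of 8 were called, 2 higher in ascending cells (Epas1, Egln3) and 2 lower (Hif1a, Adm), where 31.6% of genes were called, 16.4% higher and 15.2% lower. With TGFβ, 3 of 7 were called, with Epas1 and Egln1 higher and Hif1a lower in ascending cells, where 36.3% of genes were called, 18.1% higher and 18.2% lower. For the interaction 0 of 8 were called, and 0 had an unadjusted p under 0.05, where 0.806% of genes were called. DESeq2 called 0 of them, and without descending control replicate 3 edgeR called 2 (Adm, Egln3), where 13.5% of genes were called, 6.07% with a higher and 7.4% with a lower change in ascending cells. These comparisons share control or treated cultures with the comparisons of TGFβ.

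**Figure D3:**
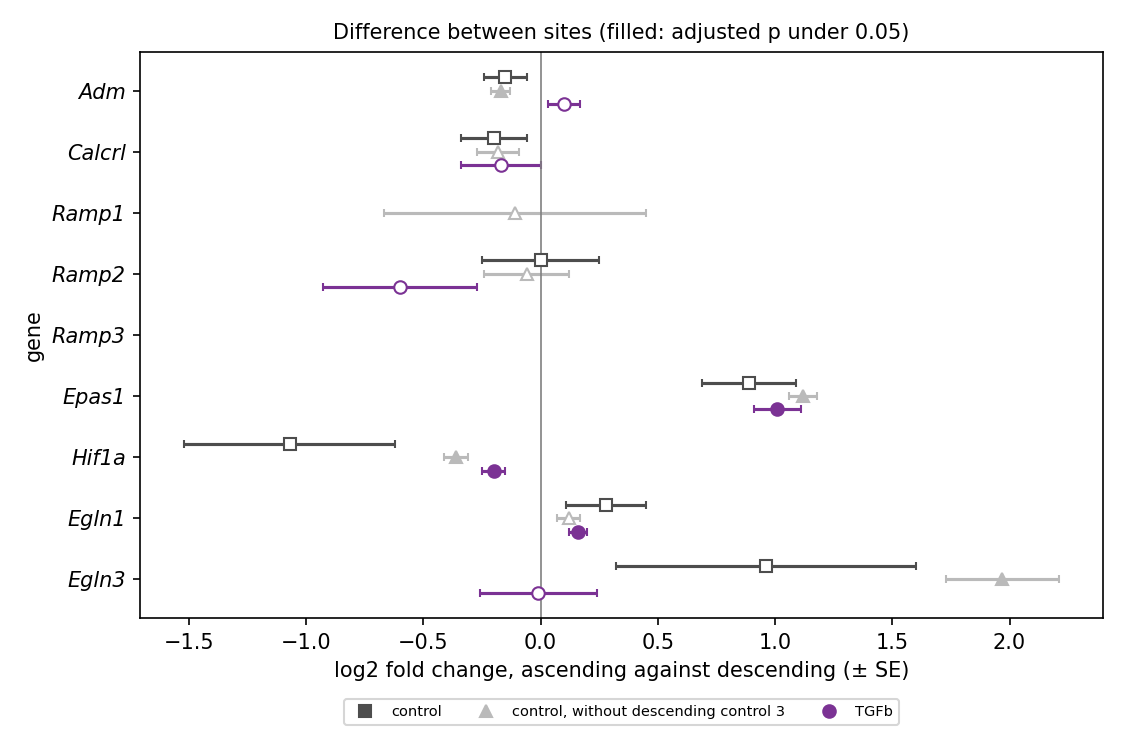
Log2 fold change of ascending against descending fibroblasts (horizontal axis, bars are ± SE) in control (squares), in control without descending control replicate 3 (triangles) and with TGFβ (circles). Filled symbols have an adjusted p under 0.05. Epas1 lies near 1 in all 3 series, and Egln3 moves from 0.96 to 1.97 in control when that library is left out and lies at -0.01 with TGFβ.

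The order of levels was compared as normalized CPM per kilobase of exon. In ascending control Adm came first (176 ± 4.07, SD, n = 3), followed by Epas1 (50.4 ± 2.83), Egln1 (28.2 ± 0.278), Hif1a (12.1 ± 0.194) and Calcrl (4.31 ± 0.516). Egln3 (1.41 ± 0.037) and Ramp2 (1.38 ± 0.200) overlapped, as did Ramp1 and Ramp3 at the end. With TGFβ, Egln1 led (35.1 ± 0.467), then Adm (25.5 ± 3.32), Hif1a (16.4 ± 1.07) and Epas1 (3.98 ± 0.139), and no neighbours in that order overlapped. The descending cells had the same first 4 genes in the same order with TGFβ, at 31.5 ± 0.567, 23.8 ± 0.434, 18.9 ± 1.04 and 1.98 ± 0.310. In descending control Adm led (197 ± 6.13), and Epas1, Hif1a and Egln1 overlapped.

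The ratio of Epas1 to Hif1a was lower with TGFβ at both sites, and in ascending cultures it went from above 1 to below 1. The ratio of Epas1 to Hif1a per kilobase was 4.09, 4.36 and 4.02 in ascending control and 0.217, 0.262 and 0.251 with TGFβ. In descending cultures it was 1.44, 1.55 and 0.781 in control and 0.0906, 0.131 and 0.0954 with TGFβ. In descending control replicate 3 the ratio was already below 1 without TGFβ. Every control ratio was above every treated ratio, and within each treatment every ascending ratio was above every descending ratio. Ramp2 made up 81.8 to 89.2% of the summed RAMP level per kilobase in ascending control and 59.6 to 76.8% in descending control, and 56.4 to 80.8% and 47.3 to 53% with TGFβ, subject to the Ramp2 uncertainty above and to the few counts of Ramp1 and Ramp3.

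**Figure D4:**
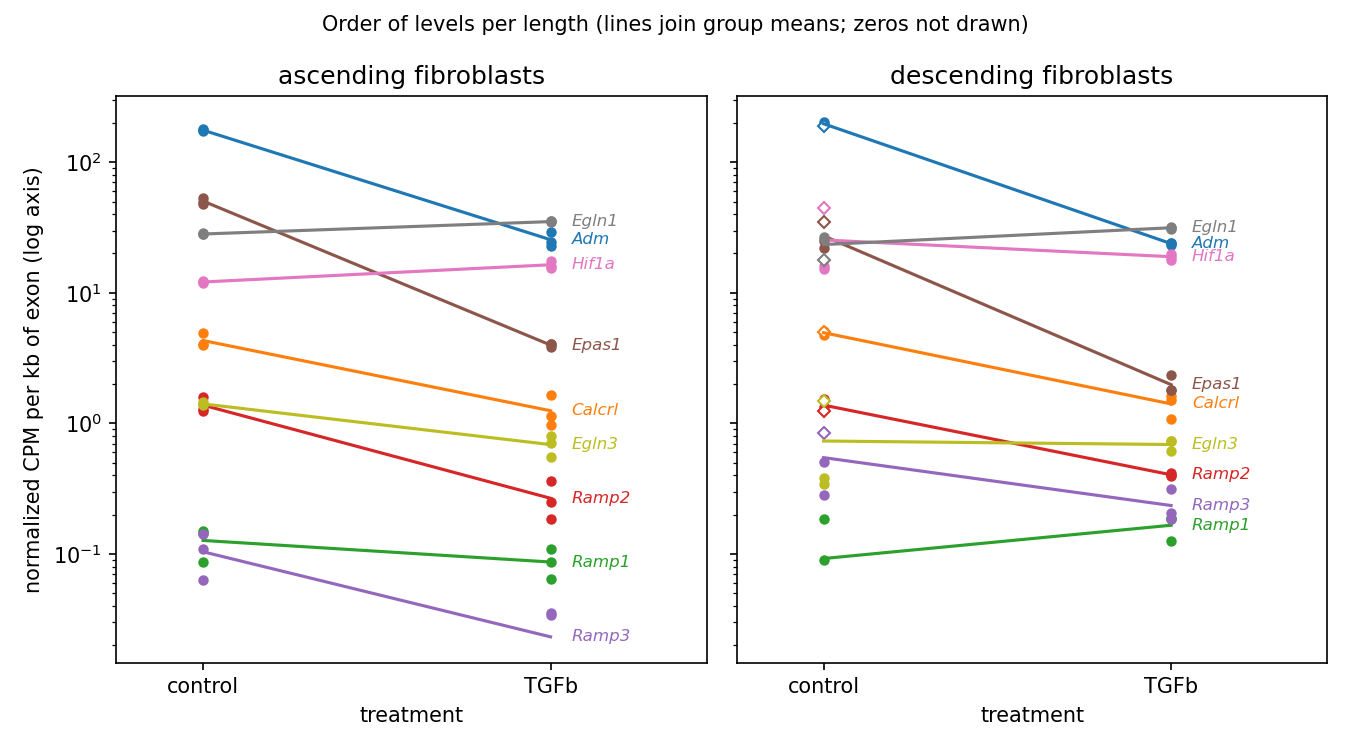
Normalized CPM per kilobase of exon (vertical log axis) of the 9 genes in control and TGFβ cultures of each site. Points are cultures, open diamonds are descending control replicate 3, lines join the means of 3, and values of 0 are not drawn. The lines of Epas1 and Hif1a cross between control and TGFβ in ascending fibroblasts, at 50.4 and 12.1 in control and 3.98 and 16.4 with TGFβ. They cross in descending fibroblasts too, at 27.3 and 25.4 in control, where the cultures overlapped, and 1.98 and 18.9 with TGFβ.

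Other genes of the adrenomedullin and CGRP family were read from a list of 10. In ascending fibroblasts 5 were tested, of which 1 rose and 2 fell (median log2 fold change -0.17), where 55.8% of all genes were called. In descending fibroblasts 5 were tested, of which 1 rose and 3 fell (-0.73), where 8.07% were called. Leaving out control replicate 3 gave 2 higher and 3 lower of 5, where 52.9% were called. Calca, Calcb, Iapp and Calcr, which encode CGRP, amylin and the calcitonin receptor, passed no filter, and Gpr182 passed it only in fits without descending control replicate 3.

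Adm2, which encodes the related peptide intermedin, was the gene that rose. It had 9, 9 and 8 counts in ascending control and 29, 22 and 27 with TGFβ, and 6, 3 and 0 counts in descending control and 44, 40 and 42 with TGFβ. The counts are low, but control and treated libraries did not overlap at either site. Its log2 fold change was 1.63 (SE 0.35, adjusted p = 0.000723) in ascending and 3.96 (adjusted p = 0.0488) in descending fibroblasts, where a fold fitted against so few counts is imprecise and the call was lost when any of the other descending libraries was left out (adjusted p = 0.0986 to 0.233). Without descending control replicate 3 it was 3.49 (adjusted p = 9.87e-08).

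Ackr3, an atypical receptor that takes up adrenomedullin as well as a chemokine, fell more in ascending cells. Its normalized CPM was 132, 138.6 and 127 in ascending control, 27.5, 24.2 and 27.4 with TGFβ, 87.3, 86.7 and 71.1 in descending control, and 37.5, 40.8 and 37.1 with TGFβ. Ascending cells were above descending cells in control and below them with TGFβ. It fell by 2.34 in ascending and by 1.09 in descending cells on the log2 scale, and the interaction was -1.24 (adjusted p = 0.00427, edgeR). Pam, the enzyme that amidates adrenomedullin, fell by 0.57 and 0.73, the descending call being lost without any of the other descending libraries than control replicate 3 (adjusted p = 0.0574 to 0.115). Mme, the peptide-degrading enzyme neprilysin, was at 19.4 to 33.6 normalized CPM in descending control and 5.00 to 6.40 in the other 3 groups. It fell by 2.02 in descending cells, had a log2 fold change of -0.17 (adjusted p = 0.357) in ascending cells, and its interaction was 1.84 (adjusted p = 0.0195). The descending calls of Ackr3 and Mme were lost when any of the 3 descending TGFβ libraries was left out (adjusted p = 0.0705 to 0.0868), and the Mme interaction when any library other than a descending control was left out (0.0621 to 0.0778).

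The rest of the HIF machinery, 16 genes that pair with, degrade or assist the alpha subunits, held equal numbers of genes called in each direction in ascending fibroblasts. There 6 rose and 6 fell of 16 tested, with a median of -0.02, where 28.2% of all genes rose and 27.6% fell. In descending fibroblasts 1 of 15 was called, where 8.07% of genes were called, and without control replicate 3 there were 4 higher and 2 lower, where 26.6% of genes rose and 26.3% fell. Siah2, a ubiquitin ligase that degrades prolyl hydroxylases, rose by 0.73 in ascending and 0.92 in descending cells, the latter call being lost without any of the other descending libraries than control replicate 3 (adjusted p = 0.096 to 0.168). Vhl, which recognises hydroxylated HIF, rose by 0.31 in ascending cells and had a log2 fold change of 0.50 (adjusted p = 0.155) in descending ones, called in the fit of all 12 libraries (adjusted p = 0.0169) and without control replicate 3 (0.37, adjusted p = 0.000511). Hif3a, a further alpha subunit, had 20, 28 and 20 counts in ascending control and 2, 2 and 7 with TGFβ. It fell (log2 fold change -2.54, adjusted p = 0.000282), by a fold that ranged from -3.36 to -2.22 over the alternatives. That fold is imprecise, because ascending TGFβ replicates 1 and 2 lay under the floor of 3 counts. Arnt2, a partner subunit, fell by 0.54 in ascending cells and had -0.49 (adjusted p = 0.248) in descending cells, called in the fit of all 12 libraries (adjusted p = 0.0483) and without control replicate 3 (-0.66, adjusted p = 2.31e-08). Arnt, the usual partner of both alpha subunits, had -0.04 (adjusted p = 0.605) and -0.31 (adjusted p = 0.36), the latter being -0.12 (adjusted p = 0.135) without control replicate 3. In the fit of all 12 libraries the ascending calls of Vhl (adjusted p = 0.146) and Hif3a (adjusted p = 0.102) were lost.

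HIF target genes, a list of 25 textbook targets other than the 9 genes, did not share a direction in ascending fibroblasts. There 10 rose and 10 fell of 25 tested (median -0.13), where 28.2% of all genes tested rose and 27.6% fell. In descending fibroblasts 5 of 24 rose and 0 fell (median 0.51 against 0.02 over all genes), where 3.59% rose and 4.48% fell. Without control replicate 3 there 13 of 25 rose and 5 fell (median 0.34), where 26.6% rose and 26.3% fell. The log2 fold change was lower in ascending than in descending cells for 20 of the 24 genes tested at both sites. Over all genes this held for 54.1%. Without that library it held for 22 of 25 and for 49.4% of all genes. Between sites in control, 3 of 25 targets were higher and 1 was lower in ascending cells (median 0.46 against 0.04), where 2.65% of all genes were called. Without that library 13 were higher and 3 lower (0.28 against 0), where 16.4% and 15.2% of all genes were. With TGFβ, 6 of 24 were higher and 9 lower (-0.05 against 0), where 18.1% and 18.2% were. The part of the control levels in this was not tested.

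The glycolytic enzyme Hk2 rose by 1.73 in ascending and 2.11 in descending cells, and Angptl4, a lipase inhibitor, rose by 0.89 in ascending cells. In descending cells Angptl4 had 0.87 (adjusted p = 0.105), called with DESeq2 (adjusted p = 0.0166), in the fit of all 12 libraries (0.00892) and without control replicate 3 (0.67, adjusted p = 1.63e-05). Ankrd37 (-1.81) and Pfkfb4 (-1.01), the latter a regulator of glycolysis, fell in ascending cells, with -1.21 (adjusted p = 0.351) and -0.28 (adjusted p = 0.777) in descending ones. When control replicate 3 was left out, Pfkfb4 fell in descending cells as well, by 0.67 (adjusted p = 0.000194), and Ankrd37 was at -0.70 (adjusted p = 0.233). The ascending Pfkfb4 call was lost in the fit of all 12 libraries (adjusted p = 0.12). P4ha1, a collagen prolyl hydroxylase, was at 457 to 491 normalized CPM in descending control and 777 to 809 with TGFβ, and at 787 to 796 and 924 to 952 in ascending cells. It rose by 0.72 and 0.24, and its interaction was -0.49 (adjusted p = 0.0316). The descending calls of Hk2 (adjusted p = 0.0672 to 0.0679) and P4ha1 (0.0978 to 0.0992) were lost without any of the descending TGFβ libraries, and that of P4ha1 also without control replicate 1 or 2 (0.0541 and 0.0614). The interaction call of P4ha1 was lost in 10 of 12 fits that left out a library, at up to 0.136. It was the only target of the 25 called for the interaction with all libraries. Without descending control replicate 3, 13 were called with a lower change in ascending cells and 1 with a higher one (median -0.42 against 0.01), where 7.4% and 6.07% of all genes were called in these directions. With all libraries the median was -0.49 against -0.06.

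**Figure D5:**
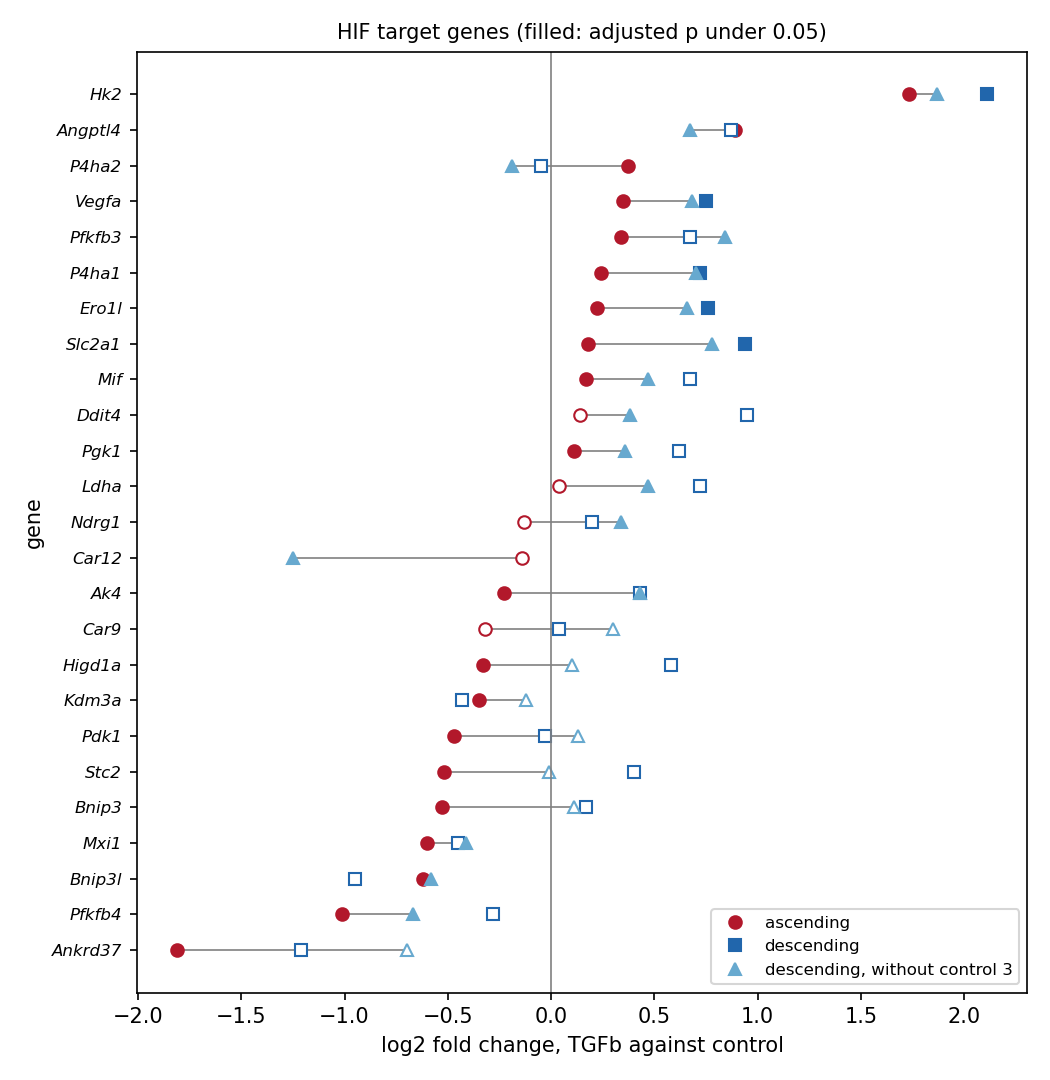
Log2 fold change with TGFβ (horizontal axis) of 25 HIF target genes, ordered by the change in ascending fibroblasts (circles), with descending fibroblasts (squares) and descending fibroblasts without control replicate 3 (triangles), joined to the circle by a line. Filled symbols have an adjusted p under 0.05. The triangle lies right of the circle for 22 of 25 genes.

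The genes with the most similar pattern to Adm, Epas1 and Calcrl were sought among 14637 genes by the root mean square difference of log2 normalized CPM, centred per gene, over the 12 libraries. This is a description over libraries that share depth and preparation. Adm was closest to Selenop (0.234), Ly6a (0.240) and Vegfd (0.273). Selenop, a selenium carrier, averaged 194 and 285 normalized CPM in ascending and descending control and 35.7 and 27.3 with TGFβ. Epas1 was closest to Galnt15 (0.241), Akr1c14 (0.409) and Clec3b (0.501), of which Akr1c14 averaged 61.9 and 42.4 in control and 7.70 and 4.32 with TGFβ. Galnt15 averaged 3.74 and 1.95 in control and 0.211 and 0.0351 with TGFβ, the last below the floor of 3 counts, so its likeness to Epas1 depends there on the prior count added before taking logs. Calcrl was closest to Atp8b1 (0.202), Pygm (0.203) and Esr1 (0.222), of which Esr1, the oestrogen receptor alpha, averaged 11.1 and 14.6 in control and 3.81 and 3.20 with TGFβ. Over the 11 libraries left when descending control replicate 3 is taken out, the nearest to Adm were Ly6a (0.190), Selenop (0.193) and Inhbb (0.244), the nearest to Epas1 were Galnt15 (0.251), Akr1c14 (0.348) and Mettl7a1 (0.379), and the 3 nearest to Calcrl were the same genes in the same order.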

How the data were processed

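RNA of 12 cultures of mouse adventitial fibroblasts was analysed, grouped by site and TGFβ as the labels give them. Paired-end reads were mapped to mm10 by the authors (STAR and featureCounts in the submitters' processing notes, versions not given in the sources used here) who deposited raw counts per gene symbol without normalization. The 9 genes and the lists were chosen with earlier results of these data known. Counts were tested in R 4.3.3 with edgeR 4.0.16 (quasi-likelihood F-test, TMM, filterByExpr at its defaults of at least 10 counts per library and 15 in total, Benjamini-Hochberg over all genes tested) within each site, within each treatment and for the interaction. DESeq2 1.42.0 was an alternative, beside its size factors, other filters, the replicate number as a block, a joint fit of all 12 libraries, and leaving out each library. Figures used Python 3.11.15 with matplotlib 3.10.9.

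Log2 fold changes are TGFβ against control or ascending against descending, and an interaction is the change in ascending minus that in descending cells. The standard error is the size of the log2 fold change divided by the square root of F. Named were the 9 genes, for each list the 2 largest changes per direction among genes called in ascending cells and up to 3 called for the interaction, the 3 genes nearest to Adm, Epas1 and Calcrl, and the TGFβ response genes. Arnt was added after its values were seen. Some listed genes are not reported here. The fits were tested on simulated counts at a dispersion of 0.01. No simulated library stood apart, so that test does not describe the power in comparisons with descending control replicate 3. Same-numbered cultures did not deviate together (r = -0.026 to 0.0878 over 18 pairs), so the numbers were not used to pair them.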

Additional observations from a re-analysis of the deposited data

Results flagged for a closer look

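Among the listed genes around these 9, the test of the interaction of site and TGFβ (edgeR's quasi-likelihood test over all 12 libraries) found a different change with TGFβ at the sites for 3, which is why they are listed. They were among 5 tested genes of the adrenomedullin family, 16 of the HIF machinery and 25 HIF targets, where 0.806% of all genes were called. Ackr3, the atypical receptor for adrenomedullin, fell more in ascending fibroblasts (interaction -1.24 on the log2 scale, adjusted p = 0.00427), and its adjusted p lay between 2.27e-15 and 0.0251 over the 17 alternatives. Mme, neprilysin, fell in descending but not detectably in ascending fibroblasts (1.84, adjusted p = 0.0195), and the call was lost with a replicate block (adjusted p = 0.0521) and without any library other than the 3 descending controls (up to 0.0778). P4ha1 rose less in ascending fibroblasts (-0.49, adjusted p = 0.0316), and the call was lost, at up to 0.217, in the fits without a filter, with a replicate block and without most single libraries.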

How the results depend on the processing

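Calls of the 9 genes with TGFβ in ascending fibroblasts kept their direction under every alternative run. In the fit of all 12 libraries 4 of them were called, and 2375 genes in all in place of 7767, while leaving out single ascending libraries gave 7146 to 7427 genes and 7 of the 9 genes throughout. In descending fibroblasts 1115 genes became 2531 with DESeq2, 3608 in the fit of 12 libraries, and 7668 (with 7 of the 9 genes) in that fit without descending control replicate 3, an alternative added after seeing the data. Leaving out single libraries gave 213 to 7576 genes and 2 to 7 of the 9, the highest without descending control replicate 3. Adm and Epas1 stayed called in each of these. The site difference in control gave 1151 genes (1 of the 9) with DESeq2, 1538 (1) in the fit of 12 libraries, 4944 (4) in that fit without descending control replicate 3, and 33 to 4631 (0 to 4) with single libraries left out. With TGFβ it gave 1110 (1) in the fit of 12 libraries, and 4340 to 4656 (3 throughout) with single libraries left out. The interaction gave 494 genes with DESeq2, 56 without a filter, and 25 to 2022 (0 to 2 of the 9) with single libraries left out.

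The replicate block left 95 genes and 2 of the 9 (Adm, Epas1) called in descending fibroblasts, 0 genes for the site in control and 50 for the interaction, and turned Egln3 in descending fibroblasts to 0.25. Of the 12 libraries 6 were nearest to their own number, and the sources do not state what a number marks, so the block is given as an alternative only. Log2 fold changes that turned sign in descending fibroblasts were Hif1a (0.27) and Egln3 (0.93) in the fit of 12 libraries without control replicate 3, and, with single libraries left out, Hif1a (-0.69 to 0.28), Egln3 (-0.42 to 0.93) and Pfkfb4 (-0.67 to 0.06). Ramp2 between sites in control was 0.00 without a filter and -0.12 to 0.09 with single libraries left out. Under TGFβ, Egln3 ranged from -0.13 to 0.13 and Adm from -0.01 to 0.18 between sites. The interaction ranged from -0.10 to 0.26 for Epas1, -0.22 to 0.04 for Egln1 and -0.22 to 0.17 for Calcrl. The causes were not tested. At this depth Ramp1 and Ramp3, with at most 18 counts per library, allow no firm statement.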
